A study of Rattus norvegicus with 6 samples.

Results

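The colon dries its contents through the enterocytes that line it. On the apical membrane of these cells the chloride/bicarbonate exchanger Slc26a3 works beside the sodium/hydrogen exchangers Slc9a3 and Slc9a2, so that sodium chloride is taken up and water follows. Slc26a2 is a sulfate carrier of the same family as Slc26a3, and Chp2 is a calcium-binding partner of sodium/hydrogen exchangers. Atp12a is the catalytic subunit of the colonic hydrogen/potassium ATPase. The carbonic anhydrases Car1, Car2 (both cytosolic) and Car4 (anchored at the apical surface) make the protons and bicarbonate that the exchangers carry, and Aqp8 is a water channel of surface colonocytes. Loss of this absorptive equipment is a known feature of the inflamed colon, in which diarrhea is a leading sign.

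These 10 genes (Slc26a3, Slc26a2, Slc9a3, Slc9a2, Chp2, Atp12a, Car1, Car2, Car4 and Aqp8) were taken by name from the enterocyte counts, and 10 of the 10 were present among the 17388 genes counted. Single nuclei RNA sequencing (snRNA-seq) was performed on colon of wildtype male Wistar rats, 3 for each of 3 treatments, whose age is not given in the sources used here. Sham rats drank water only. Placebo rats received 5% dextran sulfate sodium (DSS), which injures the colon epithelium, in drinking water for 3 days and then vehicle capsules by gavage, and PL8177 rats received the same DSS and then capsules of PL8177, an agonist of the melanocortin 1 receptor, at 50 µg per animal 2 times a day for 4 days. DSS colitis is a chemical injury and the colon was taken the day after the last dose, so the comparisons are of 1 early time in a self-limiting model. The counts held 8782 nuclei called enterocytes and 1018 called T cells, 9800 in all, and the tag in each nucleus name (GR12, GR13 and GR15 for sham, GR22, GR23 and GR24 for placebo, GR41, GR43 and GR44 for PL8177) was taken as the library of 1 rat.

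Enterocyte libraries held 304 to 1531 nuclei and 319125 to 4123319 unique molecular identifiers (UMIs, which count captured RNA molecules). A level here is the UMIs of a gene per 10000 UMIs of the library's enterocyte nuclei. The label was checked against marker genes. In each library, 98.3% to 100% of the enterocyte nuclei had a UMI of an enterocyte marker, and T cell markers together held at most 0.846 UMIs per 10000. One library went against its label on the T cell side. The 685 nuclei of placebo GR23 called T cells held 2.07 UMIs of T cell markers per 10000, against 24.5 to 58.2 in the other 8 libraries, and 147 of enterocyte markers, against 28.5 to 69.4. GR23 also had the fewest enterocyte nuclei, so the fold changes against placebo are given below with and without it. Of the 9800 barcodes, 10 occurred in more than 1 library, and no barcode was in both cell types of 1 library.

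The first question was whether DSS and PL8177 changed the level of the 10 genes in enterocytes. By edgeR's quasi-likelihood test on UMIs summed per library, with genes called where the adjusted p was below 0.05 and the log2 fold change beyond 0.5 in either direction, none of the 10 was called in any comparison. Of the 9424 genes tested, 0% were called for sham against placebo, 0% for PL8177 against placebo and 0% for PL8177 against sham. Each of the 10 had passed the filter on low counts. DESeq2, run as the alternative, also called none of the 10, against 1.74%, 1.09% and 0.0425% of the genes it tested in these comparisons. At an unadjusted p below 0.05 edgeR gave 12.4%, 9.24% and 6.59% of all genes, and among the 10 it gave 1 for sham against placebo (Atp12a), 1 for PL8177 against placebo (Car4) and 0 for PL8177 against sham. The sham and PL8177 comparisons share the same 3 placebo libraries, so their values below are given side by side and are not independent.

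**Figure D1:**
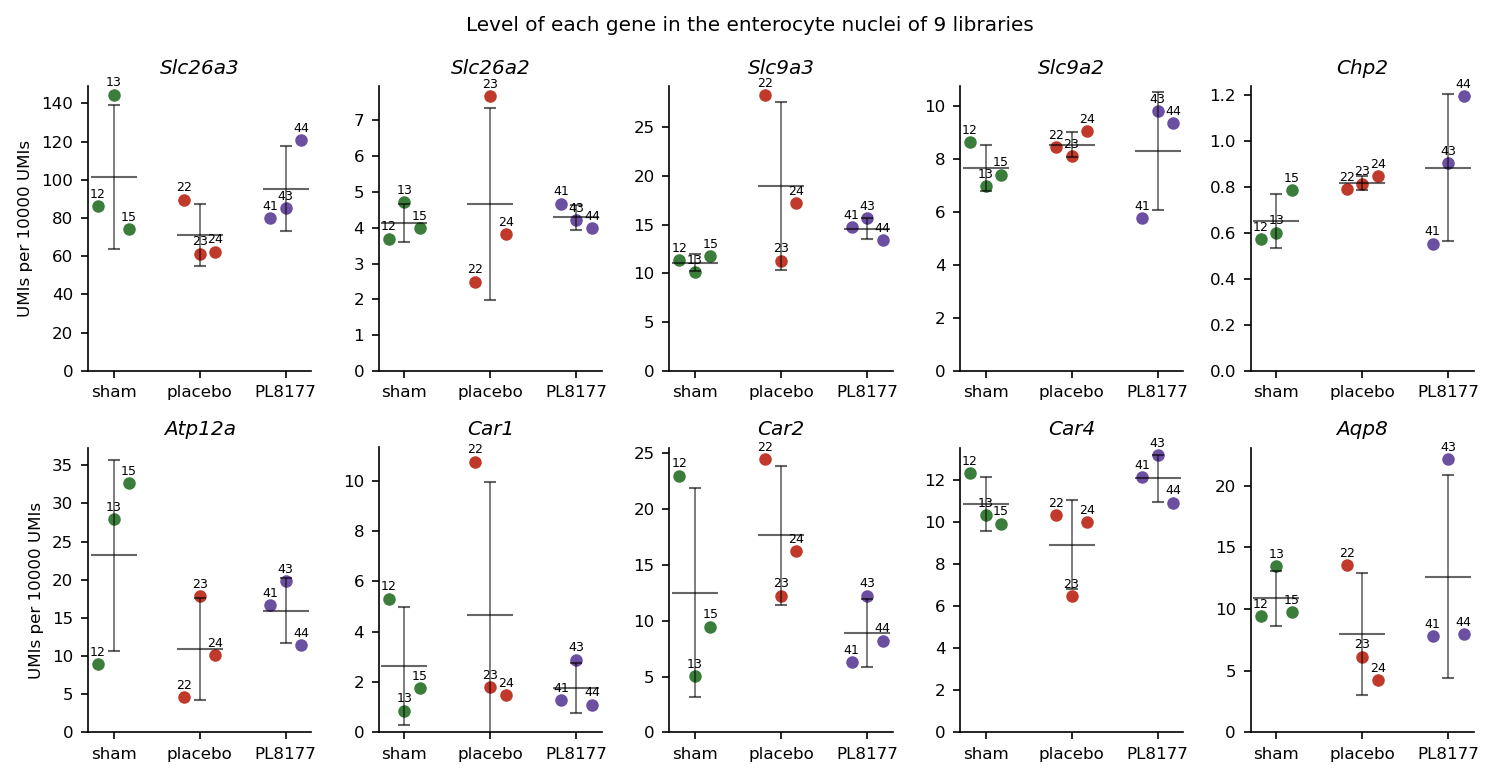
Level of each of the 10 genes in the enterocyte nuclei of 9 libraries, in UMIs per 10000 UMIs on a linear axis from 0. Each point is 1 library with the digits of its GR tag, colored by treatment, and the line and bar are the mean and SD of 3 libraries. Treatments overlap in most panels, and single libraries such as placebo GR22 for Car1 and Slc9a3, or PL8177 GR43 for Aqp8, lie far from the others of their treatment.

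Slc26a3, mutated in congenital chloride diarrhea, measured 86.1, 144.6 and 74.3 per 10000 in sham GR12, GR13 and GR15. The placebo libraries GR22, GR23 and GR24 measured 89.6, 61.4 and 62.3, and PL8177 GR41, GR43 and GR44 measured 80.1, 85.3 and 120.7. The 2 lowest values were placebo libraries, but the third, GR22, lay above 2 sham and 2 PL8177 libraries. By edgeR the log2 fold change was 0.70 (95% interval -0.04 to 1.44, adjusted p = 0.423) for sham against placebo. It was 0.60 (-0.14 to 1.34, adjusted p = 0.631) for PL8177 against placebo. Both intervals reach from just below 0 to above 1 on the log2 scale, so 3 libraries per treatment leave the size of a change in Slc26a3 wide. Single libraries moved both estimates. For sham the value was 0.26 without GR13 and 0.90 without GR22, and for PL8177 it was 0.35 without GR44 and 0.80 without GR22.

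Its relative Slc26a2 measured 3.70, 4.72 and 4.00 in the sham libraries, 2.50, 7.68 and 3.83 under placebo and 4.68, 4.21 and 3.99 under PL8177. Placebo held both the lowest library (GR22) and the highest (GR23). Against placebo the log2 fold change was 0.03 (SE 0.331) in sham and 0.08 (SE 0.329) in PL8177, and both turned negative, -0.28 and -0.23, without GR22.

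The sodium/hydrogen exchanger Slc9a3 (NHE3), the main route of sodium absorption in the colon surface, measured 11.4, 10.2 and 11.8 in sham. It measured 28.3, 11.3 and 17.2 in placebo and 14.8, 15.6 and 13.4 in PL8177. Sham libraries were tightly grouped, and placebo GR22 was the highest of the 9. Against placebo, the log2 fold change was -0.63 (-1.27 to 0.02, adjusted p = 0.412) in sham and -0.22 (-0.86 to 0.42, adjusted p = 0.876) in PL8177. Without GR22 the sham value shrank to -0.22 and the PL8177 value turned to 0.19. PL8177 libraries all lay above the sham libraries (exact permutation test, two-sided p = 0.1, the smallest that 3 against 3 can give), with an edgeR log2 fold change of 0.41 (-0.24 to 1.05).

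For Slc9a2 (NHE2), the second apical sodium/hydrogen exchanger, levels were 8.64, 6.97 and 7.41 in the sham libraries, 8.46, 8.12 and 9.04 under placebo and 5.76, 9.81 and 9.35 under PL8177. These were the most even values over libraries among the 10, with a range of 0.81 on the scale of log2 CPM (counts scaled by TMM factors), on which GR41 was the lowest and GR44 the highest. The intervals were -0.53 to 0.52 for sham and -0.39 to 0.65 for PL8177 against placebo, among the narrowest of the 10. Chp2 was sparse, with 26 to 373 UMIs per library. Its level was 0.572, 0.601 and 0.787 in the sham libraries, 0.789, 0.815 and 0.848 under placebo and 0.554, 0.905 and 1.20 under PL8177. All sham libraries lay just below all placebo libraries (exact permutation p = 0.1), though sham GR15 and placebo GR22 were 0.787 and 0.789, and the edgeR log2 fold change was -0.19 (SE 0.306).

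Atp12a, the colonic proton pump that recovers potassium, varied more than the exchangers. It measured 8.93, 27.9 and 32.7 in the sham libraries, 4.60, 17.9 and 10.2 under placebo and 16.7, 19.8 and 11.4 under PL8177. Sham GR13 and GR15 were the highest of the 9 and placebo GR22 was the lowest, yet sham GR12 lay below 2 placebo libraries. By edgeR, sham was higher than placebo by 1.29 on the log2 scale (SE 0.50, 0.20 to 2.37, unadjusted p = 0.0236, adjusted p = 0.337). For PL8177 against placebo it was 0.73 (SE 0.495, adjusted p = 0.697). Without GR23 these were 1.78 and 1.22, and without GR22 they were 0.92 and 0.36.

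Among the carbonic anhydrases, Car4 was the even one and Car1 and Car2 were not. Car4 measured 12.3, 10.3 and 9.93 in the sham libraries, 10.3, 6.49 and 10.0 under placebo and 12.2, 13.2 and 10.9 under PL8177. All PL8177 libraries lay above all placebo libraries (exact permutation p = 0.1). The edgeR log2 fold change was 0.59 (SE 0.238, 0.07 to 1.11, unadjusted p = 0.0288, adjusted p = 0.491), and 0.37 without GR23, the lowest library. Sham against placebo gave 0.43 (SE 0.239, adjusted p = 0.473), and 0.22 without GR23.

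Car1 measured 5.31, 0.869 and 1.76 in the sham libraries, 10.8, 1.79 and 1.49 under placebo and 1.29, 2.89 and 1.10 under PL8177. A single library in sham (GR12) and a single library in placebo (GR22) stood high, and the other 7 lay between 0.869 and 2.89. The log2 fold change of -0.70 (SE 0.725) for sham against placebo turned to 0.86 without GR22 (-1.70 without GR12 and -0.33 without GR13), and that of -1.27 (SE 0.731) for PL8177 against placebo turned to 0.28. Car2 followed the same libraries, with 23.0, 5.03 and 9.49 in the sham libraries, 24.5, 12.3 and 16.3 under placebo and 6.28, 12.3 and 8.21 under PL8177. Its log2 fold change against placebo was -0.38 (SE 0.447) in sham and -0.83 (SE 0.449, adjusted p = 0.623) in PL8177, the latter between -1.10 and -0.52 when any 1 of the 9 libraries was left out. The sham value of Car2 was -1.12 without GR12, -0.035 without GR13 and -0.071 without GR22. The 3 libraries highest in Car1 (GR22, GR12 and GR43) were the 3 deepest enterocyte libraries, and the part of depth in these values was not tested.

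The water channel Aqp8 measured 9.44, 13.5 and 9.73 in the sham libraries, 13.5, 6.14 and 4.21 under placebo and 7.80, 22.1 and 7.96 under PL8177. The 2 lowest libraries were placebo and the highest was PL8177 GR43. Against placebo the log2 fold change was 0.62 (-0.39 to 1.62) in sham and 0.81 (-0.19 to 1.82, adjusted p = 0.635) in PL8177. Without GR22 these were 1.26 and 1.46, and without GR24 they were 0.33 and 0.49. The sham value was 0.35 without GR13 and the PL8177 value 0.17 without GR43.

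**Figure D2:**
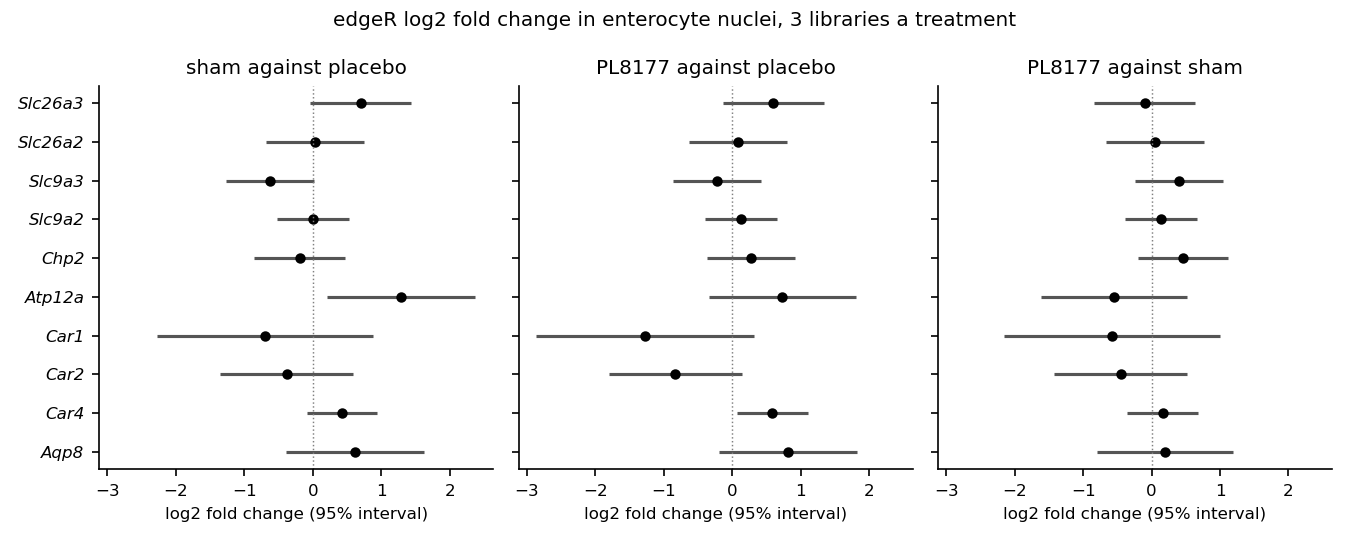
edgeR log2 fold change of each gene in enterocyte nuclei (points) with its 95% interval (lines), for sham against placebo, PL8177 against placebo and PL8177 against sham, 3 libraries per treatment. Intervals that leave out 0 are those of Atp12a for sham (0.20 to 2.37) and of Car4 for PL8177 (0.07 to 1.11) against placebo, before adjustment over 9424 genes.

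Without the library GR23, the log2 fold change of sham against placebo was 0.57 for Slc26a3, 0.52 for Slc26a2, -0.91 for Slc9a3, -0.07 for Slc9a2, -0.23 for Chp2, 1.78 for Atp12a, -1.08 for Car1, -0.61 for Car2, 0.22 for Car4 and 0.43 for Aqp8. For PL8177 against placebo it was 0.47 for Slc26a3, 0.56 for Slc26a2, -0.52 for Slc9a3, 0.05 for Slc9a2, 0.23 for Chp2, 1.22 for Atp12a, -1.68 for Car1, -1.07 for Car2, 0.37 for Car4 and 0.62 for Aqp8. None of the 10 changed sign, and none was called.

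Over the 10 genes the median log2 fold change against placebo was 0.01 in sham and 0.20 in PL8177, while PL8177 against sham gave 0.09. Over all genes tested it was -0.02, -0.01 and 0.03. In order, 5, 7 and 6 of the 10 had a positive value. In 30 exact permutation tests (10 genes, 3 comparisons), the groups of libraries did not overlap in 3, 1 in each comparison, which was Chp2 for sham against placebo, Car4 for PL8177 against placebo and Slc9a3 for PL8177 against sham. Over all genes tested, 19.6%, 18.8% and 12.0% did not overlap. The smallest Benjamini-Hochberg adjusted p of the 30 was 0.818.

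The summed level of the 10 genes was 169, 225 and 162 per 10000 in the sham libraries, 193, 134 and 135 under placebo and 150, 186 and 188 under PL8177. These UMIs are not corrected for gene length, so they do not rank the genes. The sum leans on Slc26a3, which held 45.8% to 64.4% of it.

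The spread between libraries of 1 treatment was large for some of the genes. The within-treatment SD of log2 CPM was 1.22 for Car1, larger than in 99.6% of the 784 genes of like level. It was 0.72 for Aqp8 (96.4% of 138 genes of like level lay below), 0.71 for Car2 (91.6% of 95) and 0.85 for Atp12a (88.6% of 70). For Car4 it was 0.26 and for Slc9a2 0.28, close to the median of their peers (0.29 and 0.28). The SE of the log2 fold change for sham against placebo was accordingly 0.239 for Car4 and 0.725 for Car1.

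Across the 9 libraries, Car1 and Car2 had the highest correlation of any pair among the 10 (Pearson's r = 0.85, Spearman's rho = 0.87, r = 0.60 without GR22 and GR12, r = 0.85 on deviations from the treatment means). Atp12a ran the other way from Car2 (r = -0.80, rho = -0.73, r = -0.80 without GR22 and GR15, and r = -0.80 on deviations). The points of each correlation share library and depth, and each r is given as a description. The Car1 and Car2 genes are close neighbours in the rat genome, with only Car3 between them in RefSeq's gene order on chromosome 2 (GRCr8), whereas Atp12a lies on chromosome 15. By the rule that names, for each gene, the 3 of 9423 others whose level was most like its own over 9 libraries, Car4 had Stx7 (r = 0.99), Yy1 (r = 0.97) and Acvr1b (r = 0.97). Slc9a3 had Edf1 (r = 0.93), LOC689065 (r = 0.90) and the tight junction gene Cldn3 (r = 0.90), and Car1 had Romo1 (r = 0.94), Ddt (r = 0.93) and Ivns1abp (r = 0.90). The first of 9423 values over 9 points is high by its selection, and no member of the list was among the 3 nearest of another.

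Within libraries, some of the genes formed 2 sets that tended to be counted in different nuclei. Slc9a3, Slc9a2, Chp2 and Slc26a2 were placed in neither set. Each nucleus was thinned to 300 UMIs, nuclei with fewer were left out, and each gene was measured in the nuclei with and without a UMI of another. This pattern was chosen after the values were seen and carries no test. For the ratios 0.5 UMIs were added in each class of nuclei, which raises sparse genes in the smaller class, so libraries are counted as higher or lower without that addition. In the nuclei with a Car4 UMI, Atp12a had a median log2 ratio over libraries of 1.57, Aqp8 of 1.30 and Slc26a3 of 0.97, and each was higher in 9 of 9 libraries. Split by Aqp8 instead, the median was 1.56 for Car4, 1.25 for Atp12a and 0.89 for Slc26a3, again in 9 of 9. Slc26a3, Car4, Aqp8 and Atp12a UMIs thus tended to be found in the same nuclei, in libraries of all 3 treatments.

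Car1 and Car2 formed the other set. Car2 was higher in nuclei with a Car1 UMI (median log2 ratio 0.83, 9 of 9 libraries) and Car1 in nuclei with a Car2 UMI (0.93, 9 of 9). Both were lower in nuclei with a Car4 UMI, Car1 by a median of -1.04 (higher in 1 of 9 libraries) and Car2 by -0.75 (0 of 9). The cytosolic enzymes and the membrane-bound enzyme of the same chemistry thus tended to be counted in different enterocyte nuclei. The exchanger Slc9a3 went with Slc26a3 and less evenly with the rest of the first set. It was higher in nuclei with a Slc26a3 UMI (median 0.87, 9 of 9). The median was 0.29 with a Car4 UMI (higher in 7 of 9), 0.27 with an Aqp8 UMI (7 of 9) and -0.12 with an Atp12a UMI (4 of 9). In nuclei with an Slc9a3 UMI the ratio was -0.02 for Aqp8 (higher in 4 of 9), 0.05 for Atp12a (5 of 9) and 0.23 for Slc26a3 (9 of 9), while its calcium-binding partner Chp2 was at 1.01 (9 of 9) and Slc9a2 at 0.54 (9 of 9). Slc9a2 also leaned to the first set. Its median was 0.70 in nuclei with a Slc26a3 UMI (higher in 9 of 9) and 0.51 with an Aqp8 UMI (8 of 9). With a Car4 UMI it was 0.50 (7 of 9) and with an Atp12a UMI 0.39 (6 of 9). Slc26a2 was lower in nuclei with a Car4 UMI in 9 of 9 libraries (median -0.30).

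**Figure D3:**
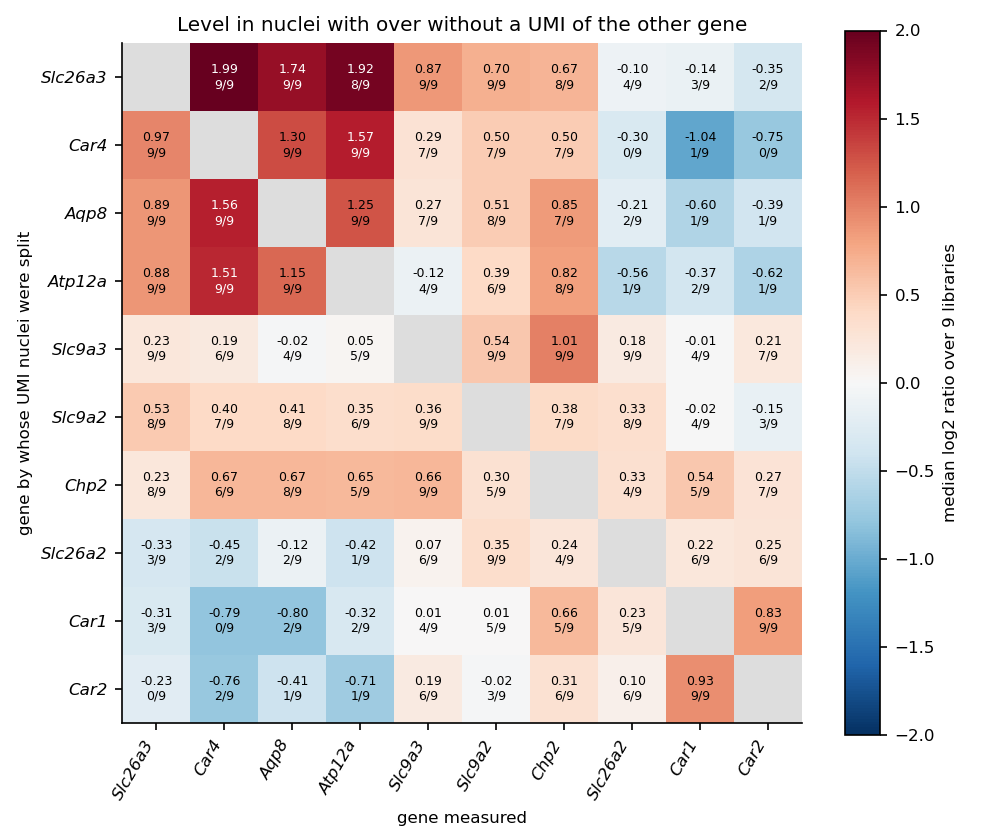
Level of each gene (columns) in enterocyte nuclei with a UMI of another gene (rows) over nuclei without, as the median log2 ratio of 9 libraries in nuclei thinned to 300 UMIs, with the count of libraries in which it was higher before 0.5 UMIs were added to each class. The upper left block of Slc26a3, Car4, Aqp8 and Atp12a is red throughout (0.88 to 1.99), the Car1 and Car2 pair is red (0.83 and 0.93), and the blocks that join both sets are blue.

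Slc26a3 and Atp12a have a promoter entry in RefSeq (GRCr8) whose start site lies at the outer end of the gene. Their 250 upstream bases are shown, with capitals for a match on either strand to 1 of 4 short motifs: TTTAT (a CDX half-site), CAAAG (an HNF4 half-site), GTTAAT (an HNF1 half-site) and TATAAA (the TATA box, which contains the reverse of the CDX letters). CDX, HNF4 and HNF1 factors are known regulators of intestinal epithelial genes.
Slc26a3, chr6:53751165-53751414, plus strand: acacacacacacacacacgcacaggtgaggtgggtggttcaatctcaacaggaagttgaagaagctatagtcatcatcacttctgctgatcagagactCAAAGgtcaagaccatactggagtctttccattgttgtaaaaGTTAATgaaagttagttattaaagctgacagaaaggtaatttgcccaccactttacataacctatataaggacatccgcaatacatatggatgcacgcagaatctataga
Atp12a, chr15:34558959-34559208, plus strand: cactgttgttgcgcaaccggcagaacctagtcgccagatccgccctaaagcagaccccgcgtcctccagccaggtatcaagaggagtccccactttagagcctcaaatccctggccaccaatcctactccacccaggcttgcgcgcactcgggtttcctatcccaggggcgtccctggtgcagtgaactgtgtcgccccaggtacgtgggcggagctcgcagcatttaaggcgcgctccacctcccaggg

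Both genes tended to be counted in the same nuclei, but these stretches differ in makeup. The Slc26a3 stretch has 40.4% G and C and holds 1 CAAAG and 1 GTTAAT match, and the Atp12a stretch has 62.4% and holds no match to the 4. Another Atp12a entry, whose start site is not at the outer end of the gene, has 48% and also holds no match. RefSeq entries matched 8 of the 10 genes. CAAAG occurred in 4 of the 8 (Slc26a3, Chp2, Car4 and Aqp8), against 48.2% of 33469 promoter windows of this length. TTTAT occurred in 1 of 8 (Aqp8, 39.3% of all), GTTAAT in 1 of 8 (Slc26a3, 6.45% of all) and TATAAA in 0 of 8 (12.9% of all). A match describes letters and not binding.

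Enterocytes change as they climb from the crypt, where they divide, to the surface, where they express keratin Krt20. Nuclei thinned to 300 UMIs were therefore split by a Krt20 UMI (2893 with, 5327 without) and, apart, by a UMI of any of 8 cycling markers (216 with, 8004 without). The share with a Krt20 UMI was 31.9% to 80.4% in the sham libraries, 21.6% to 27.0% under placebo and 28.0% to 57.3% under PL8177. Its part in the fold changes between treatments was not tested. Each split was tested by flipping signs over 9 libraries (exact permutation test, two-sided, smallest p 0.0039), with Benjamini-Hochberg adjustment over 20 tests.

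Slc9a3 was higher in nuclei with a Krt20 UMI in 9 of 9 libraries, by a mean of 0.48 on the log2 scale (SD 0.236, exact permutation p = 0.0039, adjusted p = 0.052). Slc26a3 (0.60, SD 0.386) and Slc9a2 (0.52, SD 0.333) were higher in 8 of 9, at an adjusted p of 0.052 by the same exact permutation test. Atp12a was at 0.66 (7 of 9), Chp2 at 0.78 (7 of 9 before the 0.5 UMIs were added), Car4 at 0.43 (6 of 9) and Aqp8 at 0.36 (7 of 9). Car2 leaned the other way, at -0.27 (higher in 2 of 9 libraries), and Car1 was at -0.16 (4 of 9). None of the 20 passed an adjusted 0.05 in thinned nuclei. With 0.5 UMIs split between the classes in proportion to their nuclei, an alternative chosen after seeing the data, the Krt20 ratio was 1.00 for Chp2 and -0.17 for Car1 and kept its 2 decimals for the other genes named here, while 6 of 10 genes passed for Krt20 and 5 of 10 for the cycling markers. In nuclei with a cycling-marker UMI, Car4 was lower in 8 of 9 libraries (mean -0.96, SD 1.02, exact permutation p = 0.012, adjusted p = 0.052), on 28 Car4 UMIs in those nuclei. Slc9a3 was at -0.49 and Atp12a at -0.68, on 56 and 49 UMIs. Before the 0.5 UMIs were added, Car4 and Slc9a3 were higher in 0 of 9 libraries and Atp12a in 1 of 9. Car1 had 25 UMIs in those nuclei and none in 3 libraries, too few to give a direction. Without thinning, 6 of the 10 genes (Slc26a3, Slc9a3, Slc9a2, Atp12a, Car4 and Aqp8) passed for Krt20, where the nuclei with a Krt20 UMI are also the deeper nuclei.

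**Figure D4:**
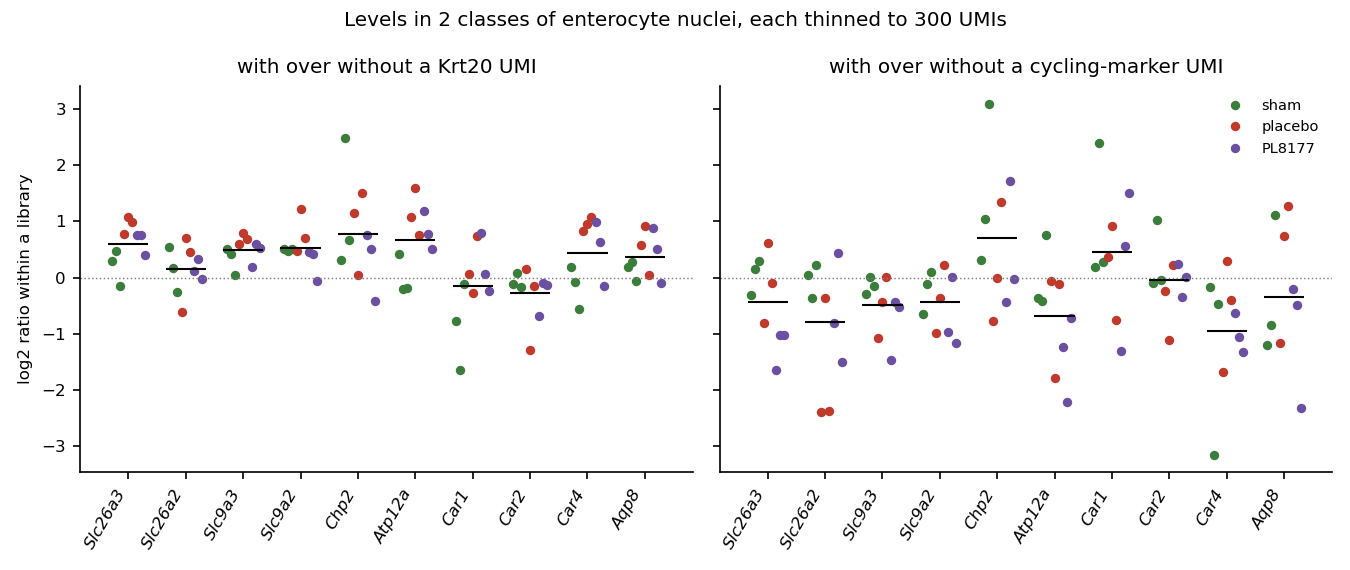
Log2 ratio of each gene in nuclei with over without a Krt20 UMI (left) or a cycling-marker UMI (right), 1 point per library colored by treatment, in enterocyte nuclei thinned to 300 UMIs; the line is the mean of 9 libraries. Slc9a3 lies above 0 in 9 of 9 libraries in the left panel, and Car4 below 0 in 8 of 9 in the right panel.

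The genes also differed in how their UMIs were spread over nuclei. At 300 UMIs per nucleus, 64.1% of enterocyte nuclei had a Slc26a3 UMI (Clopper-Pearson 95% interval 63.1% to 65.1%), with 40.4% in placebo GR23 and 87.6% in sham GR13. Nuclei with Slc26a3 carried 2.81 to 5.35 of its UMIs on average per library. Atp12a was found in 18.9% of nuclei, from 4.36% in placebo GR22 to 43.8% in sham GR15. A positive nucleus carried 1.61 to 2.52 Atp12a UMIs, and the 10% of nuclei richest in Atp12a held a median of 80.3% of them. This median depends on how many nuclei have any UMI, and was 39.1% for Slc26a3 and 100% for the sparse Chp2 and Car1. For genes found in a like share of nuclei it was 71.4% (Aqp8), 63.8% (Car4) and 58.7% (Slc9a2). The share of nuclei with a UMI was 29.5% for Slc9a3, 29.4% for Car2, 19.3% for Car4, 19.0% for Aqp8, 18.1% for Slc9a2, 10.5% for Slc26a2, 8.20% for Car1 and 2.21% for Chp2. Intervals cover counting error only.

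T cell nuclei of the same libraries were taken as a background, on the assumption that T cells express little of these genes. That assumption was not tested for any of the 10, so the T cell level is not a common floor. In 8 libraries, GR23 left out, each of the 10 genes was lower per 10000 UMIs in T cell than in enterocyte nuclei in 8 of 8. The authors assigned nuclei to cell types by clustering on expression, so this direction can follow from the sorting and was not tested. Chp2 had only 7 UMIs in the T cell nuclei of these 8 libraries. Slc26a3 was there at 2.46% to 29.4% of its enterocyte level (median 13.9%), and Atp12a at 0% to 13.0% (median 6.47%). Its 0 was in placebo GR22, where a count of 0 allows up to 0.559 per 10000 against 4.60 in the enterocyte nuclei. Other genes were relatively higher, with a median of 31.2% for Slc26a2 and 25.5% for Car2. In sham GR12, the deepest T cell library of these 8, the level was 2.46% of the enterocyte level for Slc26a3, 1.4% for Atp12a, 3.71% for Car4 and 3.52% for Aqp8, but 27.4% for Car1, 21.3% for Slc26a2, 14.3% for Car2 and 12.5% for Slc9a2. The ratio thus differed between the genes within 1 library, and its source was not tested. The summed level in T cell nuclei of these 8 libraries was 10.3 to 54.2 per 10000.

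In placebo GR23 the T cell nuclei held 161 UMIs of the 10 genes per 10000, more than the 134 in that library's enterocyte nuclei. Slc26a3 was at 82.6 against 61.4 and Slc9a3 at 24.6 against 11.3, whereas Atp12a was at 9.47 against 17.9. In T cell nuclei the share with a Slc26a3 UMI was 14.8% to 46.2% in the 8 libraries, at median depths of 364 to 2091 UMIs, and 87.9% in GR23, whose enterocyte nuclei had 54.6% (median depths 742 and 612 UMIs). The enterocyte shares were 65.6% to 88.9% in the other 8, at median depths of 437 to 2331 UMIs.

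**Figure D5:**
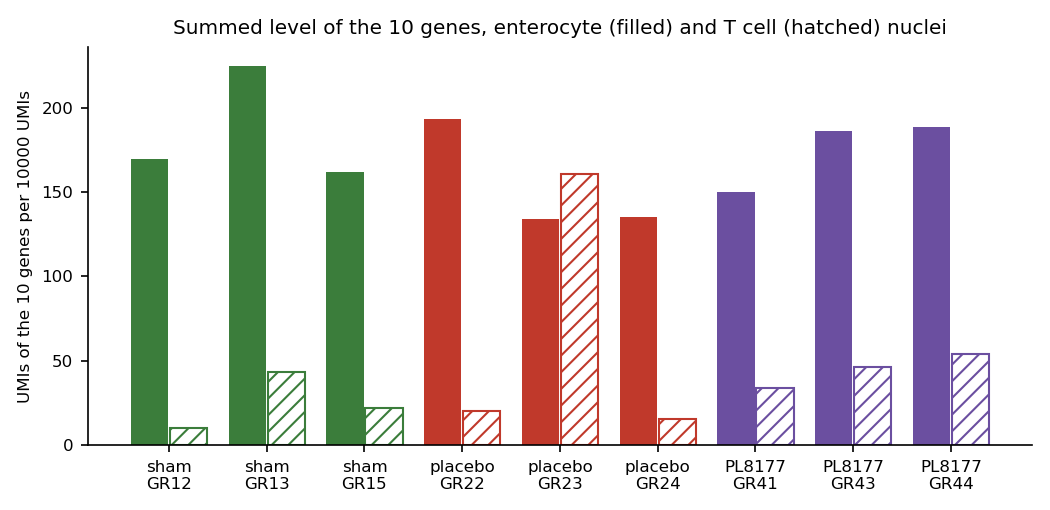
Summed level of the 10 genes in enterocyte nuclei (filled bars) and T cell nuclei (hatched bars) of each library, in UMIs per 10000 UMIs, 1 bar per library and cell type. T cell nuclei lie between 10.3 and 54.2 in 8 libraries and reach 161 in placebo GR23, above the 134 of its enterocyte nuclei.

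Genes that work with these 10 were taken from lists of other sodium/hydrogen exchangers, exchanger anchors, anion carriers, carbonic anhydrases, aquaporins and ion pumps, of which 19 could be tested. edgeR called 0 of 19 in each comparison. At an unadjusted p below 0.05, 3 were higher and 2 lower in sham than placebo (12.4% of all genes), 4 higher and 2 lower in PL8177 than placebo (9.24% of all), and 1 higher in PL8177 than sham (6.59% of all). DESeq2 called 2 of the 19 for sham and 2 for PL8177 against placebo, against 1.74% and 1.09% of all genes it tested. Those percentages are over genes to which it gave an adjusted p, and some of the 19 had none and could not be called. Slc4a4, the basolateral sodium bicarbonate cotransporter, measured 1.33, 0.690 and 0.585 in the sham libraries, 3.23, 5.23 and 1.68 under placebo and 0.621, 1.65 and 0.637 under PL8177. All placebo libraries lay above all others, though placebo GR24 (1.68) and PL8177 GR43 (1.65) were close. Over all genes, 19.6% did not overlap between sham and placebo and 18.8% between PL8177 and placebo. The share apart from both was not computed. By edgeR its log2 fold change against placebo was -1.72 (SE 0.463, adjusted p = 0.195) in sham and -1.58 (SE 0.452, adjusted p = 0.347) in PL8177, and -1.34 and -1.21 without GR23. DESeq2 called it in both, at adjusted p = 0.0209 and 0.0426. Its level in T cell nuclei was above that in enterocyte nuclei in every library but GR23. It ran there from 175% of the enterocyte level (sham GR13, on 1 UMI) to 952% (sham GR15), and was 19.1% in GR23. The source of the Slc4a4 UMIs in enterocyte nuclei was not tested.

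Of the 6 exchanger anchors, 4 could be tested, and they did not share a sign. Against placebo, Pdzd3 was at -1.35 in sham and -0.56 in PL8177, and Chp1 at -0.07 and 0.46. The scaffold Slc9a3r1 (NHERF1) measured 0.990, 2.65 and 1.88 in the sham libraries, 0.648, 0.846 and 0.684 under placebo and 0.968, 1.21 and 2.48 under PL8177. All placebo libraries lay below all others, where 19.6% (sham) and 18.8% (PL8177) of all genes did not overlap placebo. The edgeR log2 fold change of Slc9a3r1 was 1.52 (SE 0.441, adjusted p = 0.219) for sham. It was 1.29 (SE 0.434, adjusted p = 0.409) for PL8177, and 0.75 without GR44. DESeq2 called it for sham (adjusted p = 0.0413) and not for PL8177 (adjusted p = 0.172). Ezrin (Ezr), which ties the exchanger complex to the apical cytoskeleton, measured 5.38, 5.41 and 4.28 in the sham libraries, 4.56, 3.70 and 3.41 under placebo and 6.77, 5.65 and 6.95 under PL8177. PL8177 libraries lay above the libraries of both other treatments. Over all genes, 18.8% did not overlap between PL8177 and placebo and 12.0% between PL8177 and sham. For Ezr the edgeR log2 fold change was 0.90 (SE 0.228, adjusted p = 0.270) against placebo, with a DESeq2 adjusted p of 0.0413. Also under an unadjusted 0.05 were Car9 (1.18, and 0.32 without sham GR13) and Ezr (0.53), higher, and Atp1b3 (-1.10), lower, in sham than placebo, and Chp1, higher, and Slc12a2 (-0.86, and -0.57 without placebo GR24), lower, in PL8177 than placebo. Chp1 was also higher in PL8177 than sham (0.53). Slc12a2 and Atp1b3 had a higher level in T cell than in enterocyte nuclei in most libraries. In placebo GR22 it was 751% and 678% of the enterocyte level.

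Cell type markers also differed between libraries. In enterocyte nuclei the summed enterocyte markers, a list of 12 genes, held 122 to 215 UMIs per 10000 in the sham libraries. They held 108 to 112 under placebo and 132 to 167 under PL8177, so that placebo did not overlap the others. Among all single genes tested, 19.6% did not overlap between sham and placebo and 18.8% between PL8177 and placebo. The sum itself was not tested. Cycling markers held 0.525 to 0.735, 0.339 to 1.25 and 0.870 to 0.889, and T cell markers 0.290 to 0.522, 0.392 to 0.846 and 0.143 to 0.359. Cycling markers thus did not overlap between PL8177 and sham (12.0% of single genes did not), and T cell markers did not between PL8177 and placebo (18.8%). The part of these marker levels in the values of the 10 genes was not tested.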

How the data were processed

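Nuclei from colon were sequenced with 10x Genomics 3′ libraries. The authors counted UMIs with Cell Ranger 6.0.1 on rat genome 6.0, introns included, treated them with CellBender, clustered nuclei with Seurat 4.0.3 and deposited whole-number counts per gene and nucleus, not normalized, for enterocytes and T cells. Counts were summed per library tag, which the labels do not list as rats, so p-values measure the spread between tags. An incomplete last line of the placebo T cell counts was left out (15108 genes used). Doublets were not called here. Tests used edgeR 4.0.16 in R 4.3.3 (TMM, filterByExpr, quasi-likelihood, all treatments in 1 fit), exact permutation tests and DESeq2 1.42.0 as the alternative. In data simulated for sham against placebo (9424 genes), edgeR recovered 91% of 200 genes set to change by 3 on the log2 scale. Smaller changes, such as the 1.29 of Atp12a for sham against placebo, were not simulated, so the power to call them is not known. Ratios within libraries added 0.5 UMIs to each class of nuclei, or, as an alternative chosen after seeing the data, split 0.5 UMIs between the classes in proportion to their nuclei. Thinning to 300 UMIs kept 8220 of 8782 enterocyte nuclei. Named beside the 10 genes are list genes with an unadjusted p below 0.05 (1 is not reported here) and, for 3 of the 10, the 3 genes with the highest r. The members and lists were chosen with earlier results of these data known. Sequences come from RefSeq (GRCr8).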

Additional observations from a re-analysis of the deposited data

How the results depend on the processing

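None of the 10 genes was called under any of 17 alternatives (8 other settings and 9 that each leave out 1 library), and the lowest adjusted p was 0.102. Of 30 log2 fold changes, 15 kept their sign under all 17. Comparisons of treatments were not paired, since each treatment had its own rats and the labels give no pairing. Only the ratios within libraries were paired, by library tag. Enterocyte genes called, 0 in each comparison, became 107 (DESeq2), 51 (no filter on low counts), 10 (nuclei without a cycling-marker UMI), 5 (library size only) and 1 (thinned) for sham against placebo, 63 (DESeq2) and 8 (no filter) for PL8177 against placebo, and 4 (DESeq2) and 10 (no filter) for PL8177 against sham. Leaving out 1 library gave 0 to 8, 0 to 0 and 0 to 2, with 8 for sham against placebo without PL8177 GR44. The cause was not tested.

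Signs turned for sham against placebo in Slc26a2 (-0.16 by library size only, -0.023 without cycling nuclei) and Slc9a2 (0.0117 with DESeq2, 0.0119 with its size factors, 0.20 thinned). For PL8177 against placebo they turned in Slc26a2 (-0.10) and Slc9a2 (-0.047) by library size only. For PL8177 against sham they turned in Slc26a3 (0.035, nuclei with at least 500 genes) and, thinned, in Slc26a2 (-0.00036), Slc9a2 (-0.026), Car4 (-0.17) and Aqp8 (-0.28). With 1 library left out, sham against placebo ran from -0.28 to 0.52 in Slc26a2, -0.071 to 0.072 in Slc9a2 and -1.70 to 0.86 in Car1. PL8177 against placebo ran from -0.23 to 0.56 in Slc26a2, -0.52 to 0.19 in Slc9a3, -0.024 to 0.53 in Chp2 and -1.81 to 0.28 in Car1. PL8177 against sham ran from -0.33 to 0.34 in Slc26a3, -0.061 to 0.24 in Slc26a2, -1.11 to 0.42 in Car1, -0.79 to 0.29 in Car2 and -0.45 to 0.47 in Aqp8. The libraries that turned Car1 and Car2 were placebo GR22 and sham GR12.

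Without thinning, the share of nuclei with a UMI was 78.9% for Slc26a3, 37.0% for Slc26a2, 57.2% for Slc9a3, 50.2% for Slc9a2, 11.5% for Chp2, 33.1% for Atp12a, 25.9% for Car1, 60.2% for Car2, 40.8% for Car4 and 40.7% for Aqp8, since deeper nuclei hold more UMIs. The log2 ratio for a Krt20 UMI was then 1.14 for Slc26a3, 1.04 for Slc9a3 and 0.82 for Slc9a2 (adjusted p = 0.026, exact permutation), 1.49 for Atp12a, 0.90 for Car4 and 0.88 for Aqp8 (0.045), and 0.10 for Car1, which turned sign. For a cycling-marker UMI it was -0.50 for Atp12a (adjusted p = 0.039, exact permutation) and 0.13 for Car2, which turned sign. With 0.5 UMIs split between the classes in proportion to their nuclei, chosen after seeing the data, the Krt20 ratio was 0.60 for Slc26a3, 0.48 for Slc9a3, 0.52 for Slc9a2, 1.00 for Chp2, 0.66 for Atp12a and 0.36 for Aqp8, and the cycling ratio was -2.90 for Slc26a2, -0.64 for Slc9a3, -0.71 for Slc9a2, -0.90 for Atp12a and -1.81 for Car4, all with an adjusted p of 0.031 to 0.0497 (exact permutation). Chp2 (-2.89) and Car1 (-1.59) turned sign for the cycling markers, where they have libraries with 0 UMIs whose ratio depends on the addition.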
